A study of Mus musculus with 9 samples.

Results

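The molecular circadian clock was followed through the differentiation of 3T3-L1 cells, a mouse fibroblast line that turns into fat cells under a hormone mixture. The genes described are the 10 clock genes Arntl, Clock, Per1, Per2, Per3, Cry1, Cry2, Dbp, Tef and Nfil3, picked by their symbols and not by their values, out of 19094 genes listed in the files. The nuclear receptors of the clock were not among them. Cells were sampled at day 0, before induction, at day 4, and at day 8, with 3 samples per day and 9 in all. Induction medium with dexamethasone (a synthetic glucocorticoid), IBMX (which raises cyclic AMP) and insulin was added at day 0 and exchanged after 2 days for medium with insulin as the sole inducer. Fresh medium with insulin was given again at day 4, and the methods do not say whether day 4 cells were collected before this change. Cells of all 3 days belong to the same line, with no genetic change named in the labels, and are labelled adipocytes, also at day 0. The methods call each sample a mixture of RNA, and nothing says that the 3 samples of a day came from separate cultures, so p-values measure the spread between these samples, which may be technical. The hour of collection is not given in the sources used here, so the day of differentiation and the phase of the clock at collection cannot be told apart. In bulk RNA, fewer cells of a type and less RNA per cell cannot be told apart either.

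The clock is a feedback loop of transcription that takes about a day. The proteins of Arntl (also called Bmal1) and Clock pair up and switch on genes that carry an E-box, among them the Per and Cry genes, whose proteins then shut the pair down. Dbp and Tef encode activators that bind a second element, the D-box, and Nfil3 encodes a repressor of the same element. In fat tissue, as in most organs, this loop runs in the cells themselves, and glucocorticoids and cyclic AMP, a second messenger, can reset it through Per1. In cultured cells the loops of single cells drift apart unless a stimulus sets them together.

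The labels were first checked against marker genes. Summed over 10 adipocyte markers, FPKM (fragments scaled to transcript length and library depth) came to 145.9 ± 2.82 (SD, n = 3) at day 0. It reached 7442 ± 1340 at day 4 and 9670 ± 452 at day 8. Lep, which encodes leptin, was listed at 0 in all day 0 samples, and Lpl alone made up 113.52 to 121.32 FPKM of the sum there. The label adipocytes was therefore not borne out at day 0. Fibroblast and preadipocyte markers summed to 7410 ± 142, 4917 ± 203 and 5534 ± 95.6 FPKM on the 3 days. The 8 markers of dividing cells summed to 114.7 ± 23.1, 60.4 ± 3.16 and 67.4 ± 4.39 FPKM in the same order, all 8 fell early by edgeR's adjusted p beside 33.7% of all genes, and their part in the changes below was not tested. The extraction note in the labels names DRG as the source, which the other labels do not, but 10 markers of sensory neurons summed to between 1.66 and 3.17 FPKM in every sample, mostly Avil at day 0 and Snap25 later, with 2 to 6 of them at 0. Macrophage markers summed to at most 2.33 FPKM, endothelial markers to at most 1.08 and glial markers, mostly S100b, to at most 7.71. Library depth was close across samples, from 18216114 expected counts in replicate 2 of day 0 to 20452144.

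DNA upstream of the clock genes was read to show which of them carry the elements of the loop. RefSeq start sites on GRCm38.p6 gave 14 windows of 250 bases before and 50 after the start for 9 of the 10 genes, without Per2. Letters searched on both strands were the E-box CACGTG, the related E'-box CACGTT or AACGTG, the D-box TTATGTAA, TTACATAA or TTACGTAA, the cyclic AMP element TGACGTCA, and the glucocorticoid element by name. An E-box stood in windows of Per1, Cry1 and Tef, an E'-box in those of Cry1 and Cry2, and D-boxes in that of Per3. Of all 32851 such mouse windows, 7.15% held an E-box, 4.68% an E'-box and 1.06% a D-box. Counted by gene, as the members are listed, the shares were 8.09%, 5.44% and 1.23% of 27025 genes. The cyclic AMP element (1.79% of all windows) and the glucocorticoid element (0.0091%) stood in none of the members' windows. Absence says only that these letters are missing from these windows.

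The 250 bases upstream of Per1 and of Per3, paralogs that went opposite ways as described below, are shown with the elements in capitals. Any link between elements and direction was not tested. The second Per1 window and that of Dbp, which moved like Per3, held none of the elements. Both Tef windows held an E-box, and Tef moved in the directions of Dbp and Per3. The first Per1 start lies on the plus strand of chromosome 11 (chr11:69098699-69098948) and has an E-box 166 bases before the start. Per3 lies on the minus strand of chromosome 4 (chr4:151044666-151044915) and has 2 D-boxes, at 205 and 158 bases before the start.
Per1: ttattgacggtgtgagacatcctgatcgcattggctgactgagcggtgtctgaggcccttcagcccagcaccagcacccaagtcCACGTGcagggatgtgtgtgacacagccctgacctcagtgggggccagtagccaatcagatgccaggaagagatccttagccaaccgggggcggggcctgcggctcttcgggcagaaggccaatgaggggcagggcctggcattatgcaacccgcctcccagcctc
Per3: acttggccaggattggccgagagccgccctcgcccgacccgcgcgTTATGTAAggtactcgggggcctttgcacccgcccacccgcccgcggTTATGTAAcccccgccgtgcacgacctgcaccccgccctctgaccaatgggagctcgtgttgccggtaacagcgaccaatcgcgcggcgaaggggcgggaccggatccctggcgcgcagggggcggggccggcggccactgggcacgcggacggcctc

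Shorter stretches around the elements of Cry1, Cry2 and Tef are shown for comparison with Per1. They come from chr10:85185097-85185126 on the minus strand for the Cry1 E-box, chr2:92434218-92434247 on the minus strand for Cry2, and chr15:81802534-81802563 on the plus strand for the first start of Tef.
Cry1 E-box: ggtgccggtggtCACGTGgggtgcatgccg
Cry2 E'-box: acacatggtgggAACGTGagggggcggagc
Tef E-box: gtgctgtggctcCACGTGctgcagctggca

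Clock genes were expressed at all 3 days, and their order shifted. At day 0, Tef was highest at 31.8 ± 0.811 FPKM (mean ± SD, n = 3, as in all means that follow), ahead of Dbp at 23.2 ± 1.34 and Nfil3 at 14.0 ± 0.952. Arntl, Per1, Cry2 and Clock followed between 9.26 and 6.44 FPKM, then Per3, Cry1 and Per2. At day 4, Per1 moved to the top at 27.6 ± 0.993 FPKM beside Tef at 27.1 ± 0.180, and their samples overlapped. Dbp fell back among Arntl and Clock, whose day 4 samples it overlapped, and Per3 was the lowest of all 10 at 1.89 ± 0.06. Dbp (34.2 ± 2.18 FPKM) and Tef (31.6 ± 0.806) led again at day 8 with overlapping samples, and Per2 was last at 2.43 ± 0.0608. Neighbours that overlapped were also Per1 and Cry2 as well as Per3 and Cry1 at day 0, and Nfil3 and Cry2 at day 8.

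**Figure D1:**
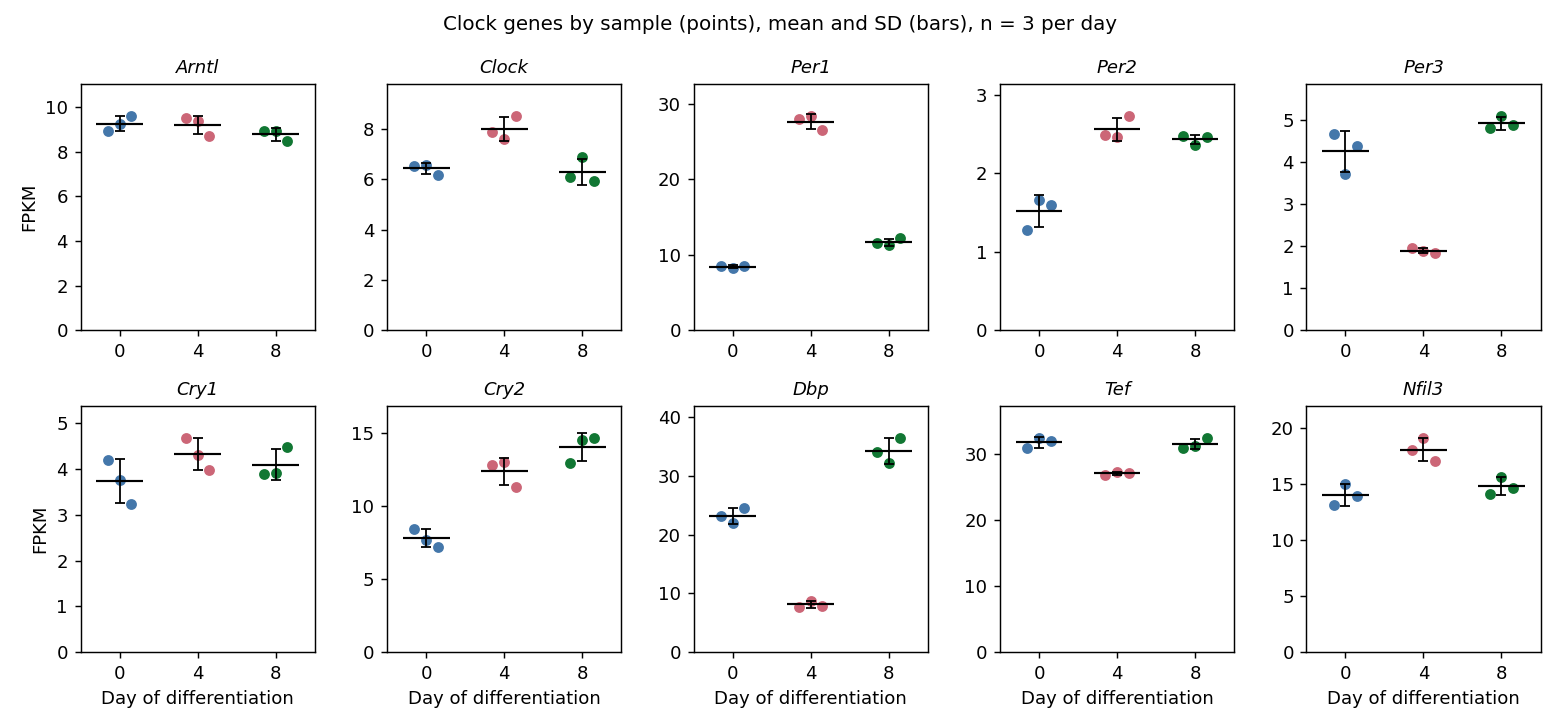
FPKM of the 10 clock genes (y axis, a separate scale per gene, from 0) at day 0, 4 and 8 (x axis). Points are samples, horizontal lines the means and bars the SD (n = 3). Per1 peaks at day 4 at 27.6 FPKM, while Dbp and Per3 are lowest there, at 8.13 and 1.89.

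The first question was which clock genes changed in the early phase, day 4 against day 0. Per1 was upregulated more than 2-fold, and Per3 and Dbp were downregulated more than 2-fold (edgeR, Benjamini-Hochberg adjusted p under 0.05). That is 1 of 10 genes up, beside 9.77% of the 13154 genes tested, and 2 of 10 down, beside 7.98%. Without the fold threshold, 6 were up (Clock, Per1, Per2, Cry1, Cry2 and Nfil3) beside 35.5% of all genes, and 3 were down (Per3, Dbp and Tef) beside 33.7%. The median log2 fold change was 0.33 over the 10 genes and 0.02 over all genes tested.

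In the late phase, day 8 against day 4, the same 3 genes passed both thresholds in the opposite direction. Per3 and Dbp were upregulated, 2 of 10 beside 4.24% of all genes, and Per1 was downregulated, 1 of 10 beside 2.81%. By adjusted p alone 4 were up (Per3, Cry2, Dbp and Tef) beside 22.5%, and 3 were down (Clock, Per1 and Nfil3) beside 22.7%. Both comparisons share the day 4 samples, so a deviation of those samples would move them in opposite directions. The median log2 fold change was -0.03 over the 10 genes and -0.01 over all genes.

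Over the whole process, day 8 against day 0, which does not use the day 4 levels, no clock gene passed both thresholds, beside 10.3% of all genes up and 7.7% down. That count was 0 by edgeR's quasi-likelihood and exact tests, DESeq2 and limma, while 8 genes were up and 0 down at an unadjusted p under 0.05. By edgeR's adjusted p alone 6 were up (Per1, Per2, Per3, Cry2, Dbp and Nfil3) beside 34.8%, and 0 were down beside 36.2%. The median log2 fold change was 0.28 over the 10 genes and -0.02 over all genes. Leaving out replicate 1 of day 0 or replicate 1 of day 8 brought Cry2 just past 2-fold, with log2 fold changes of 1.03 in both cases.

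**Figure D2:**
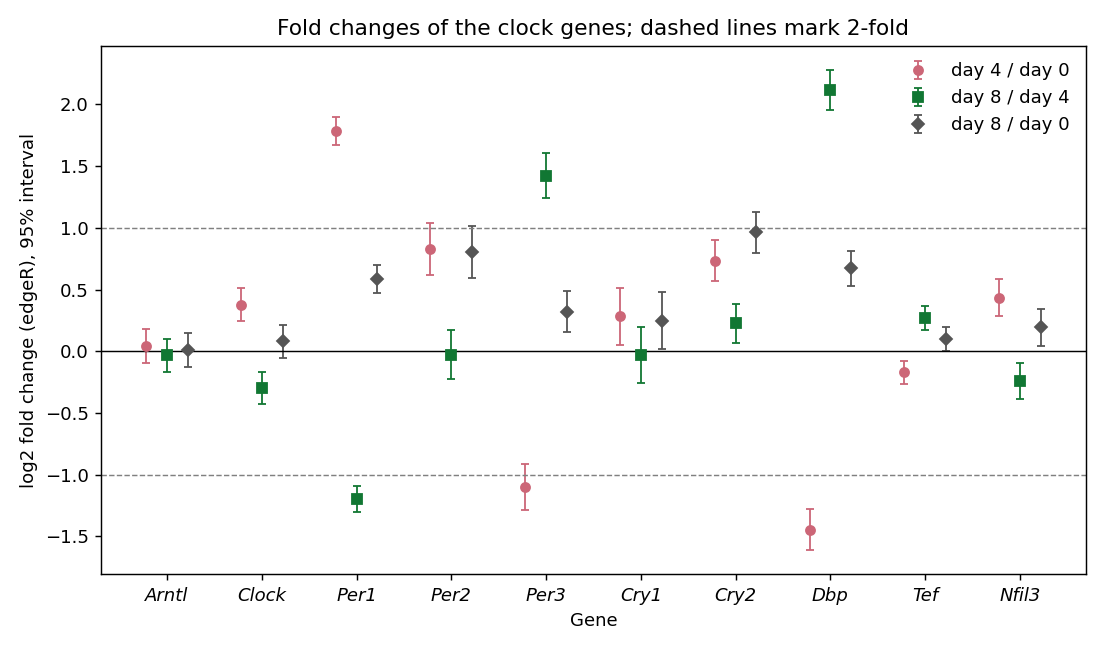
log2 fold change from edgeR (y axis) of each clock gene (x axis) for day 4 over day 0, day 8 over day 4 and day 8 over day 0, with 95% intervals as bars and dashed lines at 2-fold. Dbp reaches -1.45 and then 2.12, Per1 1.78 and then -1.20, and Arntl stays between -0.03 and 0.04.

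Arntl, the activator without which the loop stops, showed no change past the test. Its FPKM was 8.93, 9.25 and 9.61 in the day 0 samples, 9.5, 9.36 and 8.72 at day 4, and 8.92, 8.95 and 8.46 at day 8. All 3 days overlapped. By edgeR its log2 fold changes were 0.04 early (95% interval -0.09 to 0.18, adjusted p = 0.566), -0.03 late (-0.17 to 0.10, adjusted p = 0.695) and 0.01 over the whole process (-0.13 to 0.14, adjusted p = 0.91). These intervals leave room for early changes between 0.938-fold and 1.13-fold. The sign of the early and whole values turned with library size alone or with FPKM.

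Clock, the partner of Arntl, was modestly higher at day 4. Its FPKM was 6.55, 6.59 and 6.18 at day 0, 7.87, 7.59 and 8.53 at day 4, and 6.09, 6.9 and 5.94 at day 8. The day 4 samples lay above all others, and day 0 and day 8 overlapped. Clock rose by 0.38 on the log2 scale (SE 0.0615, edgeR adjusted p = 4.51e-05) and then fell by 0.30 (adjusted p = 0.000933). Over the whole process its log2 fold change was 0.08 (interval -0.05 to 0.21, adjusted p = 0.257).

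Among the Period genes, whose products repress Arntl and Clock, Per1 had the largest early fold change. Per1 is also an immediate target of hormone signals. Its FPKM was 8.45, 8.23 and 8.56 at day 0, 27.96, 28.41 and 26.51 at day 4, and 11.6, 11.25 and 12.18 at day 8. The 3 days did not overlap. Per1 rose 3.44-fold in the early phase (log2 1.78, SE 0.0528, edgeR adjusted p = 5.69e-14) and fell 2.29-fold in the late phase (log2 -1.20, adjusted p = 2.89e-11). Day 8 stayed above day 0 (log2 0.58, adjusted p = 8.07e-08).

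Per2, the Period gene most needed for rhythm in mice together with Per1, was the least abundant member at day 0 and day 8. Its FPKM was 1.28, 1.66 and 1.6 at day 0, 2.48, 2.46 and 2.73 at day 4, and 2.47, 2.36 and 2.46 at day 8. Day 0 lay below both later days, which overlapped with each other. Per2 rose by 0.83 on the log2 scale in the early phase (SE 0.0988, edgeR adjusted p = 1.48e-06), and its late value was -0.03 (interval -0.23 to 0.17, adjusted p = 0.822). It rests on 154 to 318 expected counts in a sample.

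Per3, a paralog that is less needed for the rhythm itself, went the other way. Its FPKM was 4.65, 3.71 and 4.38 at day 0, 1.95, 1.89 and 1.83 at day 4, and 4.79, 5.09 and 4.86 at day 8. Every day 4 sample lay below every other sample, and every day 8 sample lay above those of day 0. Per3 fell by 1.10 on the log2 scale in the early phase (SE 0.0879, edgeR adjusted p = 1.16e-08) and rose by 1.42 in the late phase (SE 0.0867, adjusted p = 1.88e-09). The whole difference was 0.32 (adjusted p = 0.00179), and it did not pass with limma on log2(FPKM + 0.1) (adjusted p = 0.0644).

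Cryptochromes, the partners of the Period proteins, differed from each other. Cry2 FPKM was 8.45, 7.68 and 7.22 at day 0, 12.81, 13 and 11.28 at day 4, and 12.96, 14.48 and 14.66 at day 8. Day 0 lay below all later samples, while day 4 and day 8 overlapped. Cry2 rose 1.66-fold early (log2 0.73, SE 0.0779, edgeR adjusted p = 3.79e-07) and 1.95-fold over the whole process (log2 0.96, adjusted p = 1.23e-08). Its late log2 fold change was 0.23 (adjusted p = 0.02). It no longer passed at 0.16 without replicate 3 of day 4 (adjusted p = 0.0816), at 0.21 without replicate 2 (0.0757) or 3 (0.0648) of day 8, or with limma on FPKM (0.17 and 0.18, adjusted p = 0.0818 and 0.0825).

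Cry1, the stronger repressor of the pair, changed less. Its FPKM was 4.19, 3.77 and 3.23 at day 0, 4.68, 4.31 and 3.98 at day 4, and 3.89, 3.91 and 4.48 at day 8. All days overlapped, and its spread between replicates, a biological coefficient of variation of 0.0749, was the widest of the 10 genes. The early log2 fold change of 0.28 passed narrowly (SE 0.1089, edgeR adjusted p = 0.0305) and no longer passed without replicate 3 of day 0 (adjusted p = 0.164) or replicate 1 of day 4 (adjusted p = 0.113), and likewise without replicate 2 of either day (0.0544 and 0.0776). Nor did it pass with library size alone (log2 0.22, adjusted p = 0.0849) or with limma on log2(FPKM + 1) and log2(FPKM + 0.1) (adjusted p = 0.0985 and 0.101). The whole value of 0.25 did not pass (adjusted p = 0.0532), although it did in several alternatives, among them without replicate 1 of day 0 (adjusted p = 0.0155).

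Of the genes acting through the D-box, Dbp changed most, and more than any other of the 10 genes in the late phase. Dbp encodes an activator whose own transcription is driven by Arntl and Clock. Its FPKM was 23.11, 21.91 and 24.58 at day 0, 7.76, 8.75 and 7.87 at day 4, and 34, 32.12 and 36.46 at day 8. The 3 days did not overlap. Dbp fell 2.73-fold in the early phase (log2 -1.45, SE 0.0784, edgeR adjusted p = 9.18e-11) and rose 4.34-fold in the late phase (log2 2.12, SE 0.0764, adjusted p = 3.71e-12). Day 8 was 1.59-fold above day 0 (log2 0.67, adjusted p = 2.15e-07). Of the 50-base stretches of Dbp transcripts, 16.2% also occur on the opposite strand in Sphk2, and the strand setting of the libraries is not given in the sources used here. Sphk2 itself had log2 fold changes of 0.41 early and 0.01 late.

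Tef, a close relative of Dbp, moved in the same directions but far less. Its FPKM was 30.93, 32.5 and 32.07 at day 0, 26.93, 27.29 and 27.13 at day 4, and 30.91, 31.3 and 32.46 at day 8. All day 4 samples lay below all others, and day 0 and day 8 overlapped. Tef fell by 0.17 on the log2 scale (SE 0.0447, edgeR adjusted p = 0.00289) and rose by 0.27 (adjusted p = 0.000128). Its biological coefficient of variation of 0.0381 was the smallest of the 10 genes, beside a median of 0.055 over all genes tested.

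Nfil3, the repressor that competes with Dbp and Tef, was highest at day 4. Its FPKM was 13.09, 14.99 and 13.93 at day 0, 18, 19.09 and 17.03 at day 4, and 14.06, 15.64 and 14.66 at day 8. Day 4 lay above both other days, which overlapped. Nfil3 rose by 0.43 on the log2 scale early (SE 0.0699, edgeR adjusted p = 4.02e-05) and fell by 0.24 late (adjusted p = 0.00964). The late value no longer had an adjusted p under 0.05 without replicate 2 of day 4 (0.099), or without replicate 1 (0.0551) or 3 (0.0522) of day 8. The whole value of 0.19 (adjusted p = 0.0237) no longer passed 0.05 with library size alone (0.316) or with limma on FPKM. Nor did it pass without replicate 1 (0.106) or 3 (0.0562) of day 0 or replicate 2 of day 8 (0.107).

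Ratios of FPKM within a sample set the members against each other per length. Dbp over Nfil3, activator over repressor of the D-box, went from 1.66 ± 0.175 down to 0.451 ± 0.0169 and up to 2.32 ± 0.233 over the 3 days. The days did not overlap, so that Dbp exceeded Nfil3 at day 0 and day 8 and lay below it at day 4. Tef over Nfil3 went from 2.28 ± 0.0997 to 1.51 ± 0.0822 and back to 2.14 ± 0.119. Per1 over Per2 was 5.64 ± 0.858, 10.8 ± 0.992 and 4.80 ± 0.132 on the 3 days. Cry1 over Cry2 declined from 0.478 ± 0.0267 through 0.350 ± 0.0171 to 0.292 ± 0.0192, with no overlap between days. Per2 over Arntl, repressor over activator, came to 0.163 ± 0.0183, then 0.279 ± 0.0295 and 0.277 ± 0.0135. Clock over Arntl was 0.696 ± 0.0473, 0.873 ± 0.0920 and 0.719 ± 0.0464. With 3 against 3 samples the smallest p of the two-sided exact permutation test is 0.1, so no ratio could pass 0.05. Of 18 tests of 6 ratios, all reached 0.1 (adjusted 0.12) except Tef over Nfil3 and Clock over Arntl for the whole process (exact p = 0.3 and 0.6) and Per2 over Arntl in the late phase (exact p = 1).

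**Figure D3:**
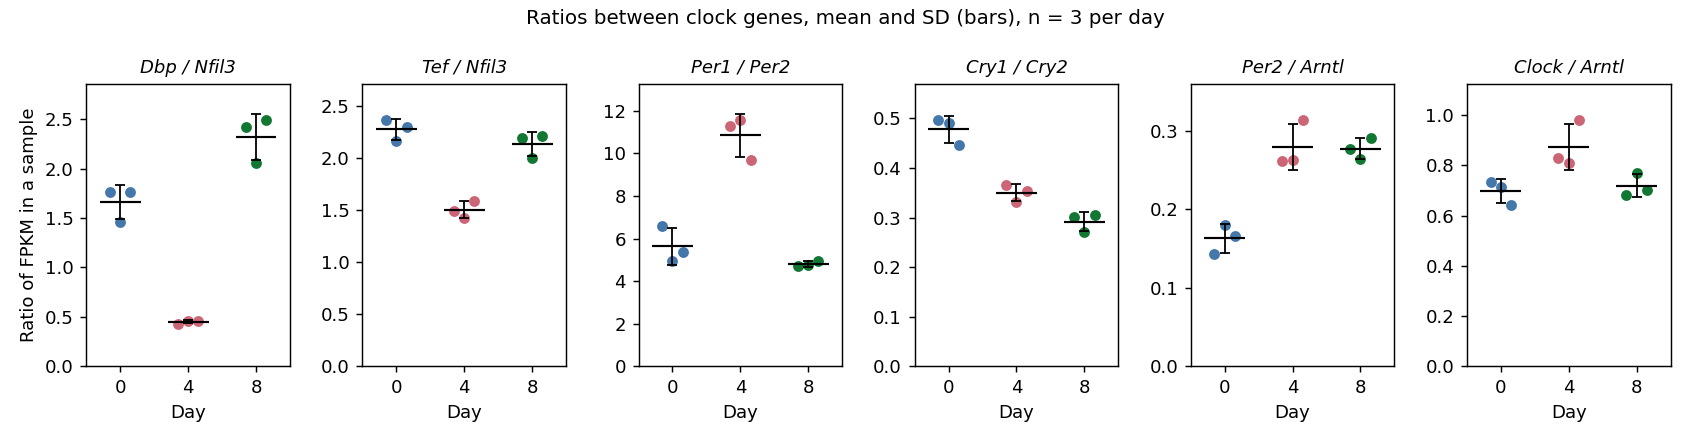
Ratio of FPKM of paired clock genes within each sample (y axis, from 0) by day (x axis), with points for samples, lines for means and bars for the SD (n = 3). Dbp over Nfil3 drops from 1.66 to 0.451 and returns to 2.32, while Cry1 over Cry2 declines at each step.

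Across the 9 samples, log2 CPM (counts scaled to library depth) of Dbp ran close to Per3 (Pearson r = 0.985) and Tef (r = 0.973), and that of Per1 to Nfil3 (r = 0.920). These values describe 9 points in 3 clusters, the days. Among 11467 genes with sufficient counts, Txndc5 (r = 0.998) and Stim1 (r = 0.997), a calcium sensor of the endoplasmic reticulum, ran closest to Per1. Stim1 FPKM was 12.2 ± 0.465, 36.7 ± 1.56 and 17.4 ± 0.129 on the 3 days. Spry2, a brake on growth factor signalling, and Cox6a2, a subunit of cytochrome c oxidase, ran closest to Dbp (r = 0.996 for both). Cox6a2 FPKM was 6.51 ± 0.348, 1.27 ± 0.296 and 14.6 ± 1.48. Matn4 and Serpinf1, both secreted proteins, ran closest to Per3 (r = 0.991 for both). The closest genes were Rraga (r = 0.994) and Plekha2 (r = 0.991) for Tef, Akap1 (r = 0.994) and Plod1 (r = 0.991) for Cry2, and Trim67 (r = 0.997) and Fnta (r = 0.996) for Per2. They were Nkrf (r = 0.985) and N6amt1 (r = 0.977) for Clock, Smap2 (r = 0.969) and Gpn3 (r = 0.965) for Nfil3, Pxk (r = 0.929) and 1110008L16Rik (r = 0.923) for Cry1, and Smarcal1 (r = 0.912) and Larp6 (r = 0.842) for Arntl. Arntl had the lowest values of the 10 genes. Trim67 was close to 0 at day 0, at 0.0133 ± 0.0115 FPKM.

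Beyond the 10 genes, 34 other clock genes were tested. Early, 3 were upregulated past both thresholds (Npas2, Hlf and Usp2) and 1 was downregulated (Ciart), beside 9.77% and 7.98% of all genes. By adjusted p alone 9 of 34 were up and 17 down early, beside 35.5% and 33.7%. Late, 4 were upregulated (Bhlhe40, Ciart, Hlf and Prkaa2) and 0 downregulated, beside 4.24% and 2.81%, and 11 were up and 7 down by adjusted p alone, beside 22.5% and 22.7%. From day 0 to day 8, 4 were up (Npas2, Bhlhe40, Hlf and Prkaa2) and 0 down, beside 10.3% and 7.7%, and 9 were up and 13 down by adjusted p alone, beside 34.8% and 36.2%, all by edgeR. DESeq2, the edgeR exact test and limma likewise called 0 down in both, while 8 late and 14 whole-process genes were down at an unadjusted p under 0.05. limma on log2(FPKM + 1) called 1 up early, 2 up late and 2 up over the whole process. The median log2 fold change of the 34 genes was -0.15 early, beside 0.02 over all genes. At day 0, Npas2 had 0 to 1 and Hlf 6 to 11 expected counts per sample. The count filter may have admitted both through the later days alone, so no conclusion is drawn from their early and whole-process calls.

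Ciart, a repressor of Arntl and Clock, had the shape of Dbp and Per3. Its FPKM was 4.86, 4.73 and 4.14 at day 0, 1.65, 1.53 and 1.36 at day 4, and 3.77, 4.09 and 4.58 at day 8. The day 4 samples lay below all others, and day 0 and day 8 overlapped. Ciart fell by 1.53 on the log2 scale (edgeR adjusted p = 1.63e-07) and rose again in the late phase (adjusted p = 7.37e-07). Bhlhe41, another E-box repressor, went from 5.96 ± 0.106 to 3.66 ± 0.39 and back to 5.86 ± 0.505 FPKM. Its relative Bhlhe40 rose late, from 20.1 ± 2.37 to 46.4 ± 4.92 FPKM (log2 1.26, adjusted p = 6.6e-09).

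Hlf, the third D-box activator beside Dbp and Tef, did not follow them. Its FPKM was 0.05, 0.08 and 0.09 at day 0, 1.24, 1.16 and 0.84 at day 4, and 3.26, 3.18 and 2.51 at day 8. It rose at each step with no overlap (edgeR log2 3.92 and 1.51, adjusted p = 9.34e-10 and 2.47e-07). The early value starts from 6 to 11 expected counts per sample and, given the count filter, carries no conclusion. Usp2, a deubiquitinase that acts on clock proteins, was highest at day 4 like Per1, at 4.82 ± 0.477 FPKM against 1.73 ± 0.264 at day 0 and 2.53 ± 0.236 at day 8. Prkaa2, a kinase subunit, stayed at or below 0.41 FPKM as a mean. Npas2, a relative of Clock, was nearly absent, with 0 to 1 count per sample at day 0 and a mean of 0.193 FPKM at day 4. The coactivators Ep300 and Crebbp, which work with Arntl and Clock, declined at both steps, by log2 -0.78 and -0.72 over the whole process (adjusted p = 2.55e-09 and 2.08e-09).

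Among the nuclear receptors of the clock, Rorb was close to 0 and was not tested. Nr1d1 and Nr1d2, whose products repress Arntl, were lowest at day 4, at 13.1 ± 0.629 and 3.27 ± 0.0493 FPKM, against 22.4 ± 0.518 and 9.72 ± 0.500 at day 0 and 34.0 ± 0.537 and 7.05 ± 0.432 at day 8. Nr1d2 passed both thresholds in both phases and Nr1d1 in the late phase. Rora, which activates through the same element, rose early (log2 0.78, edgeR adjusted p = 5.47e-08).

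The study's induction medium held a glucocorticoid, dexamethasone, so 8 glucocorticoid-responsive genes were read beside Per1. Early, 6 of 8 were upregulated past both thresholds and 0 downregulated, beside 9.77% and 7.98% of all genes. Late, 6 of 8 were downregulated and 0 upregulated, beside 2.81% and 4.24% (edgeR, where adjusted p alone gave 8 of 8 in each case, beside 35.5% up early and 22.7% down late, and no gene went the other way at an unadjusted p under 0.05 or by DESeq2 or limma). Fkbp5, a chaperone partner of the receptor, was at 11.35, 14.05 and 12.69 FPKM at day 0, 199.32, 201.19 and 197.26 at day 4, and 14.4, 13.75 and 14.7 at day 8. The day 4 samples of Fkbp5 stood far above the others, with log2 fold changes of 4.04 and -3.76. Tsc22d3 and Errfi1 also peaked at day 4, at 278 ± 13.7 and 106 ± 2.67 FPKM, as did Zbtb16, at 17.28 to 19.03 FPKM. Over the whole process 1 of 8, Zbtb16, was up and 0 were down past both thresholds by edgeR, DESeq2 and limma, beside 10.3% and 7.7% of all genes by edgeR. By edgeR's adjusted p alone 6 were up and 1 down, beside 34.8% and 36.2%, and 1 was down at an unadjusted p under 0.05. These genes moved with Per1, and their part in the clock genes' changes was not tested.

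**Figure D4:**
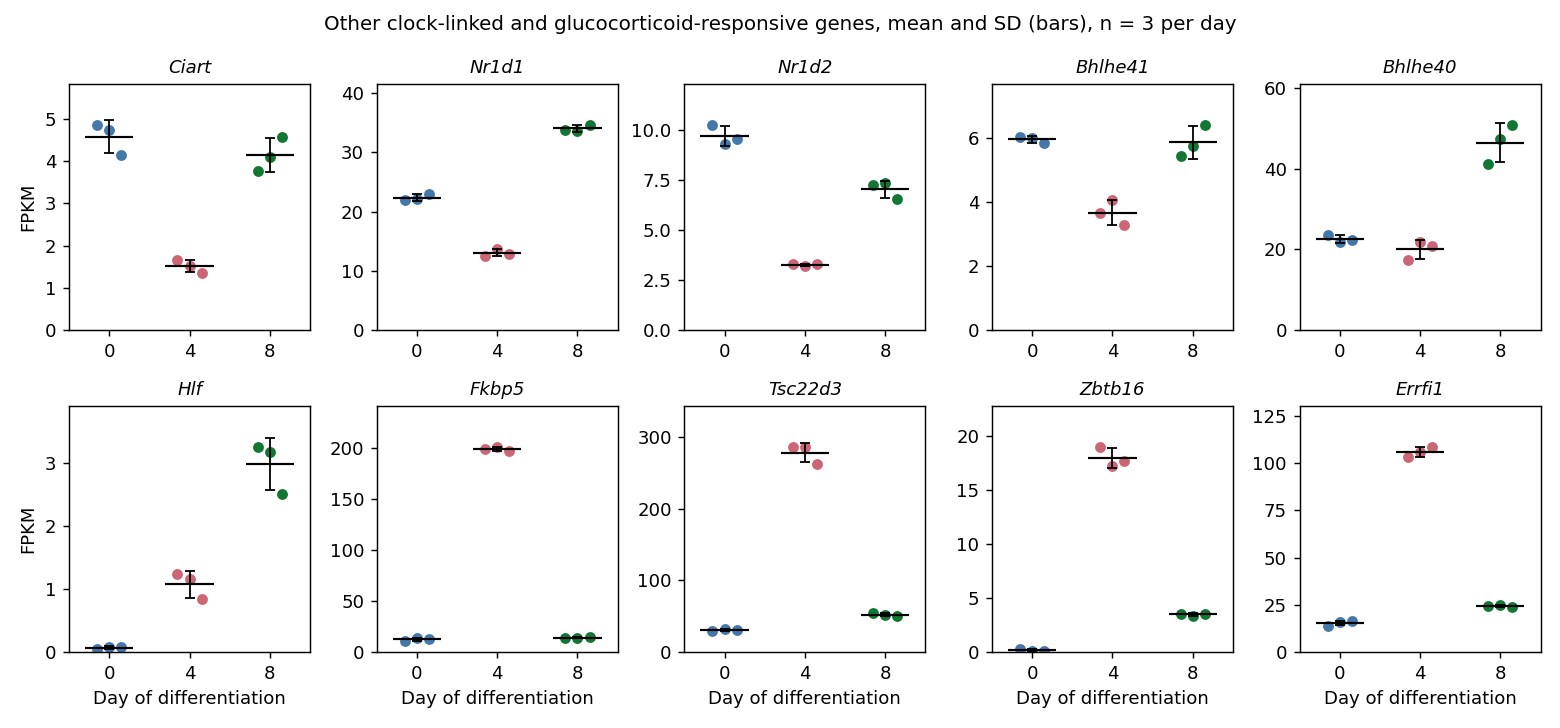
FPKM (y axis, a separate scale per gene, from 0) of clock-linked genes and of the glucocorticoid-responsive genes Fkbp5, Tsc22d3, Zbtb16 and Errfi1 by day (x axis). Points are samples, lines means and bars the SD (n = 3). Ciart, Nr1d1 and Nr1d2 are lowest at day 4, Hlf climbs to 2.98 FPKM at day 8, and Fkbp5 peaks at 199 FPKM at day 4.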

How the data were processed

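RNA-seq of 3T3-L1 cells at day 0, 4 and 8 (3 samples each) was used. Per the study's methods, the authors cleaned the reads, mapped them with HISAT/Bowtie2 and quantified genes with RSEM. The submitters' processing notes list CASAVA 1.4 and Bowtie2. The genome build of the mapping is not given in the sources used here. The deposited expected counts are RSEM estimates without normalization, 29.8% of them not whole. FPKM, also deposited, was computed by the authors per gene length and depth.

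Expected counts were rounded and fitted in R 4.3.3 with edgeR 4.0.16 (filterByExpr by day, TMM, one quasi-likelihood model of all 9 samples). P-values were adjusted by Benjamini-Hochberg over 13154 genes. Genes with an adjusted p under 0.05 that changed more than 2-fold were called. SE is the log2 fold change divided by the square root of F. Log2 CPM used a prior count of 2. Alternatives used DESeq2 1.42.0, limma 3.58.1 on log2(FPKM + 1) and log2(FPKM + 0.1), other scaling and filters, and left out each sample. The fits were tested on simulated data.

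Depth was 18216114 to 20452144 expected counts, at which 3 counts equal 0.147 to 0.165 CPM; this floor covers counting error alone. No replicate pair agreed within sampling noise (chi-square per gene at least 2.40). The members and gene lists were chosen with earlier results of these data known. Named are the 10 members, the 2 genes most alike to each, and from each list the counts, the largest changes past both thresholds and genes needed for the pathway. The reference table held 19040 of the 19094 deposited gene IDs. Sequences are from RefSeq, GRCm38.p6, used for sequence only. A result for another gene is not reported here.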

Additional observations from a re-analysis of the deposited data

How the results depend on the processing

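The calls of Per1, Per3 and Dbp in the early and late phase held in every leave-one-out fit and under the alternatives that kept the fold threshold, except that Per3 early fell short of 2-fold with limma on log2(FPKM + 1) (log2 -0.86, adjusted p = 9.84e-07), where the added 1 shrinks changes of low genes. Over the whole process, leaving out a sample gave 0 to 1 member called, Cry2. Over all genes, leave-one-out fits called 2319 to 2501 early, 908 to 970 late and 2397 to 2467 for the whole process. limma on log2(FPKM + 1) called 1273, 360 and 1281 genes, and a minimum of 10 counts in every sample called 483 late. Without a fold threshold, 9106, 5953 and 9339 genes and 9, 7 and 6 members were called. Signs turned for values close to 0. Under library size alone, limma on log2(FPKM + 1) and limma on log2(FPKM + 0.1), in that order, log2 fold changes were -0.0235, -0.0102 and -0.0112 for Arntl early, -0.102, -0.0699 and -0.0768 for Arntl whole, -0.0305, -0.0273 and -0.0314 for Clock whole, and -0.0129, -0.0122 and -0.0126 for Tef whole. Library size alone moved the median of all genes for the whole process to -0.129. Leave-one-out values ran from -0.072 to 0.0144 for Arntl late, -0.0131 to 0.0446 for Arntl whole, -0.0508 to 0.0162 for Per2 late and -0.0922 to 0.0275 for Cry1 late. The cause was not tested. Single-gene values under alternatives were compared by sign and by adjusted p alone, without the fold threshold. Of 570 such values, 511 kept direction and side of 0.05, 22 lost and 17 gained an adjusted p under 0.05, and 20 turned sign.

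Replicate numbers were shared across days, but same-numbered samples did not deviate together (9 pairs, r from -0.0348 to 0.075). With a replicate block, 2340, 923 and 2370 genes were called early, late and for the whole process, and Cry1 whole passed (log2 0.25, adjusted p = 0.0489). Depth limits genes near 0, such as Npas2 and Gys2 at day 0.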

Other observations

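Of 17 tested genes that are rhythmic in many tissues, 9 were upregulated early past both thresholds and 1 was downregulated by edgeR, beside 9.77% and 7.98% of all genes. The 9 include Fmo2 and Gys2, whose low counts are given below. DESeq2 also called 9 up early, while limma called 6 on log2(FPKM + 1) and 8 on log2(FPKM + 0.1). Nampt, which makes an NAD precursor, measured 15.6 ± 0.43, 45.1 ± 2.53 and 37.4 ± 1.67 FPKM on the 3 days. Pfkfb3, a regulator of glycolysis, was at 3.24 ± 0.0794, 11.6 ± 0.571 and 15.8 ± 1.19 FPKM. Late, 2 were up (Ciart and Gys2) and 2 were down (Tsc22d3 and Fmo2), beside 4.24% and 2.81%, and by adjusted p alone 5 were up and 9 down, beside 22.5% and 22.7%. limma on log2(FPKM + 1) called 1 up and 1 down late. Over the whole process 7 were up and 0 down by edgeR and DESeq2, beside 10.3% and 7.7% by edgeR, while limma called 4 up on log2(FPKM + 1), 5 up on log2(FPKM + 0.1) and 1 down on both, and 4 were down at an unadjusted p under 0.05. Usp2, Ciart and Tsc22d3 also belong to other lists of the report. Fmo2 and Gys2 were also among the genes up early and over the whole process. At day 0, 4 and 8, Fmo2 had 2 to 3, 17 to 24 and 6 to 10 expected counts per sample. Gys2 had 0 to 1, 6 to 12 and 13 to 35. The count filter may have admitted each through its highest day alone, so no conclusion is drawn from their calls.

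Of 8 cyclic AMP-responsive genes tested, edgeR called 1 up early (Fos) and 1 down (Nr4a2, a nuclear receptor), beside 9.77% and 7.98% of all genes, and 1 down late (Fos), beside 2.81%. DESeq2 also called 1 up late, and limma on log2(FPKM + 0.1) called 2 down early. Fos, an immediate early transcription factor, varied widely at day 4, at 119.5 ± 60.3 FPKM, against 39.2 ± 12.5 at day 0 and 34.4 ± 4.31 at day 8. Nr4a2 went from 3.37 ± 0.15 to 1.33 ± 0.14 and 1.69 ± 0.261 FPKM. Over the whole process 0 passed both thresholds in either direction by edgeR, DESeq2 or limma, beside 10.3% up and 7.7% down of all genes by edgeR, while 2 were up and 4 down at an unadjusted p under 0.05.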
